A study of Mus musculus with 76 samples.

Results

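Mature neural cultures of the mouse strain C57BL/6J (B6), derived from its embryonic stem cells, were compared with and without ID-8, which inhibits the kinase DYRK1A. The members are the 8 libraries that the deposited table marks as B6, maturation stage, ID-8 or control, without axon injury. They are 4 control and 4 ID-8 libraries of 76 sequenced samples in the series. The other samples are WSB/EiJ (WSB) cultures, the progenitor stage (NPC) and a stage of axon regrowth with and without axotomy. Neither the dose of ID-8 nor the length of exposure is given in the sources used here, and the control is named only as such. Culture names placed control replicates 1 and 2 and ID-8 replicates 1 and 2 in culture experiment 1, and replicates 3 and 4 of both groups in experiment 2. No source says how many stem cell lines were used, so p-values measure the spread between these libraries, part of which may be technical.

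DYRK1A is a dual-specificity kinase of neural cells. It phosphorylates NFAT factors and so opposes calcineurin, and it phosphorylates cyclin D1, tau and proteins of the Notch and splicing machinery. ID-8 is an indole compound known from its use in stem cell culture. The comparison asks which transcripts differ when the kinase inhibitor is present while neurons mature.

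Total expected counts were 29810486 to 33562809 in control and 31601386 to 41736050 with ID-8, and 19570 to 20796 genes were detected in a library. Mitochondrially encoded genes held 5.97 to 11.3% of counts in control and 5.53 to 9.0% with ID-8. Levels are given as CPM, counts scaled to a fixed TMM-corrected library total, followed by the SD over 4 libraries where a mean is printed. Differences are log2 ratios of ID-8 to control, followed by their standard error. Library values are always listed from replicate 1 to replicate 4. A call means an adjusted p below 0.05 from the quasi-likelihood test of edgeR (Benjamini-Hochberg).

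The 8 libraries hold whole cultures and not purified neurons. The 16 pan-neuronal markers, such as Map2, Tubb3 and Rbfox3, summed to 3461 to 4447 CPM in control and 3357 to 8340 CPM with ID-8. The 16 astrocyte markers summed to 1798 to 7120 and 4522 to 8458 CPM, and the 13 fibroblast markers to 751 to 1188 and 571 to 1116 CPM. Of 13 microglia markers, Tyrobp, C1qa, C1qc and Ptprc held at most 3 counts in all over the 8 libraries. In such whole-culture RNA, fewer cells of a type and less RNA per cell cannot be told apart.

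Dyrk1a transcript itself did not differ detectably. It read 108.5, 121.5, 130.1 and 137.6 CPM in control and 111.7, 144.8, 157.2 and 137.2 CPM with ID-8, so the groups overlapped. The log2 difference was 0.15 ± 0.17 (edgeR, adjusted p = 0.601). Inhibiting the kinase need not change its mRNA, so Dyrk1a does not check the labels.

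With ID-8, genes of the oligodendrocyte lineage, neurotrophic factors and their receptors, lipid synthesis and the integrated stress response were among those called higher. Contractile, complement, interferon and antigen presentation genes were among those called lower. Of 16954 genes tested, 1307 (7.71%) were called higher and 1595 (9.41%) lower. With the culture experiment as a replicate block the counts were 2270 (13.4%) higher and 2553 (15.1%) lower, and 1306 of the 1307 and 1595 of the 1595 genes were called there too. At 2-fold or more 496 were higher and 925 lower, and at 4-fold or more 126 and 333. Control and ID-8 libraries did not overlap in 1128 of the genes called higher and 1431 of those called lower. Over all genes tested 10.2% did not overlap and were higher with ID-8, and 11.5% did not overlap and were lower. Within each culture experiment 98.8% of the higher and 99.3% of the lower calls kept their direction. The calls were made on both experiments pooled, so much of this agreement was built into the selection and is no separate test. Without control replicate 2 the count of higher genes was 856. The median over all genes tested was 0.0.

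**Figure D1:**
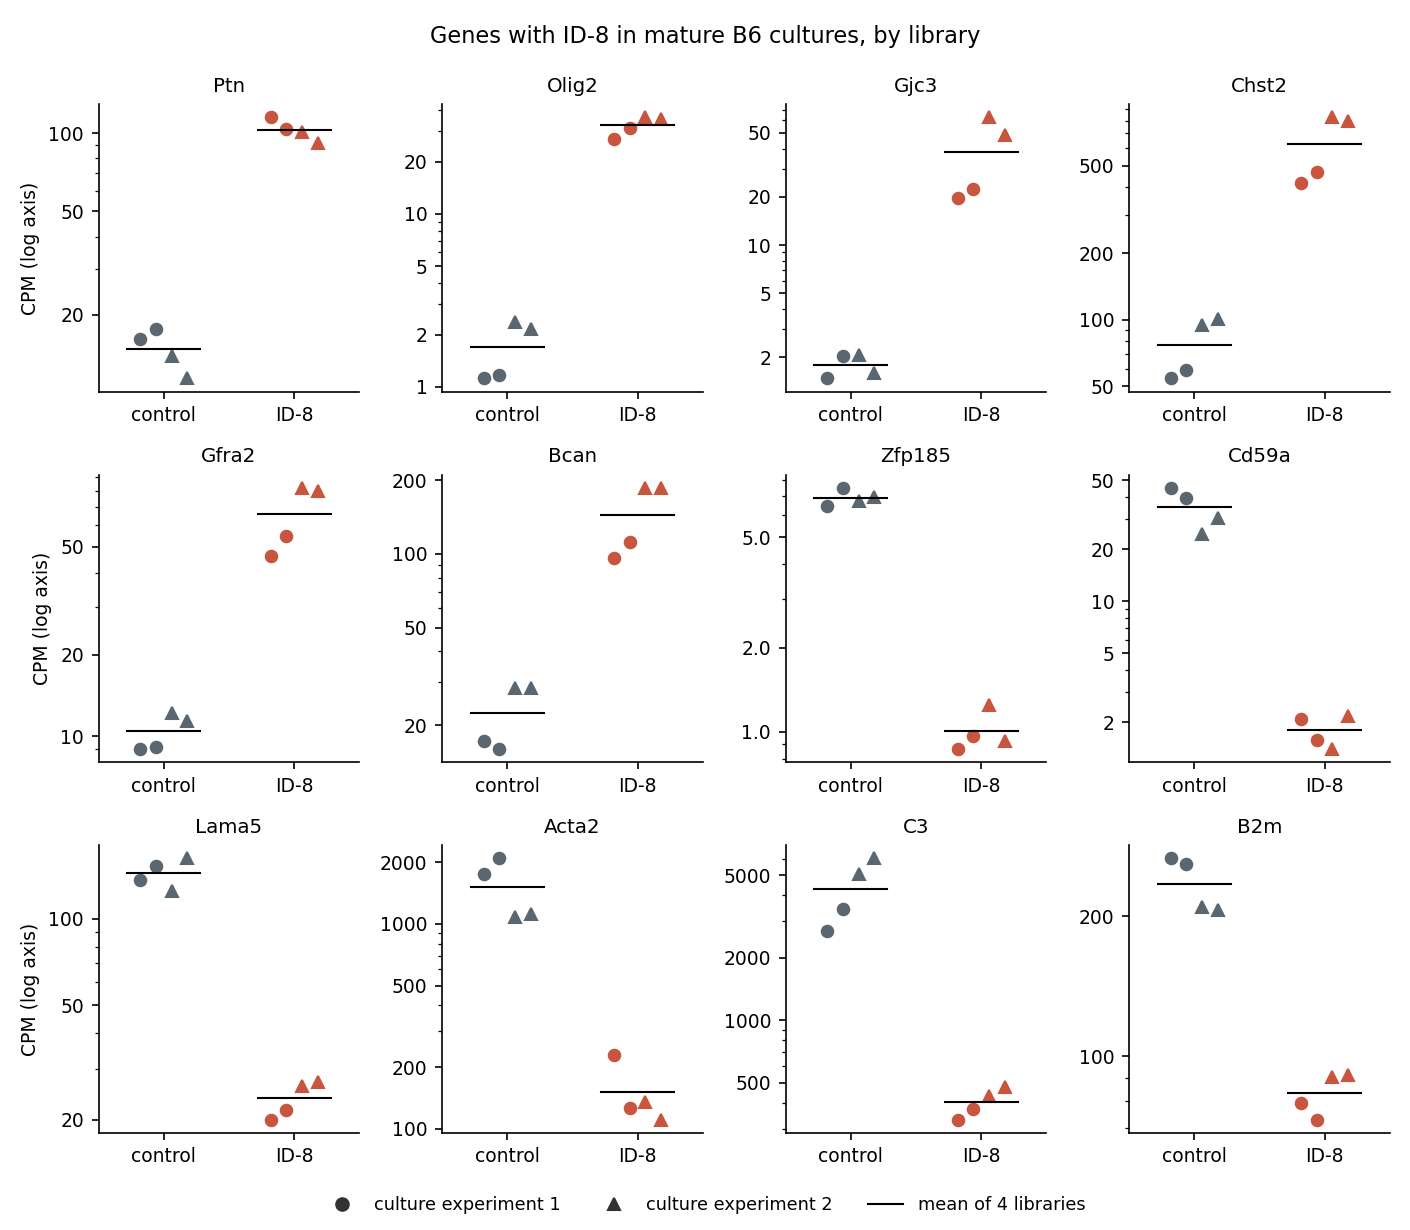
Level of 12 genes in each B6 maturation library, as CPM on a log axis, for control (grey) and ID-8 (red). Circles are culture experiment 1, triangles experiment 2 and bars the mean of 4 libraries. In all 12 genes the groups do not overlap, as in Ptn (11.4 to 17.6 CPM in control, 91.7 to 115.1 CPM with ID-8) and Cd59a (24.4 to 45.2 and 1.40 to 2.16 CPM).

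Ptn, which encodes the heparin-binding growth factor pleiotrophin, had the smallest p among the genes that rose. It read 16.1, 17.6, 13.9 and 11.4 CPM in control and 115.1, 103.6, 101.5 and 91.7 CPM with ID-8. The groups lie far apart in both culture experiments, with a log2 difference of 2.80 ± 0.16 (edgeR, adjusted p = 1.88e-07). Grem1, an extracellular antagonist of BMP ligands, read 5.28, 6.14, 5.33 and 5.33 CPM in control and 25.3, 25.5, 23.6 and 23.6 CPM with ID-8. Its difference of 2.15 ± 0.16 (adjusted p = 8.6e-07) varied little within either group. The sulfotransferase Chst2, which modifies glycan chains, read 54.2, 59.1, 94.5 and 101 CPM in control and 416, 466, 828 and 794 CPM with ID-8. Both groups were higher in experiment 2, and the log2 difference was 3.02 ± 0.26 (adjusted p = 5.47e-06). The rule for named genes also took Fjx1 (2.29 ± 0.19), a secreted signalling regulator, St8sia5 (1.66 ± 0.14), a sialyltransferase of gangliosides, Elovl7, a fatty acid elongase, and Car10. The neuronal tubulin Tubb2b rose by 2.01 ± 0.18, but 45.8% of its transcript sequence is shared with other genes, so reads could be divided between them.

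Of 12 oligodendrocyte lineage markers tested, 4 were higher and 1 lower, with a median of 0.02 against 0.0 for all genes. Olig2, the transcription factor that specifies oligodendrocyte precursors and motor neuron progenitors, read 1.12, 1.18, 2.39 and 2.16 CPM in control. With ID-8 it read 27.0, 31.6, 36.2 and 35.4 CPM, a log2 difference of 4.25 ± 0.35 (edgeR, adjusted p = 3.52e-06). No ID-8 library came near the control range.

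Olig1 (2.05 ± 0.43) and the myelin gene Mbp (0.88 ± 0.19) rose as well. The Olig1 response was more negative in experiment 2 than in experiment 1, by -1.62 ± 0.18 (edgeR, adjusted p = 0.000379). Gpr17, a receptor of differentiating precursors, fell by 3.85 ± 0.95 on the log2 scale (adjusted p = 0.0113), from 0.754 ± 0.561 to 0.0488 ± 0.0289 CPM. In the fits of the 8 B6 libraries alone, Gpr17 failed the count filter and was not tested. Other defining markers of the lineage did not follow. Pdgfra read 17.9 ± 7.97 CPM in control and 17.6 ± 6.11 CPM with ID-8, Mog read 0.552 ± 0.22 and 0.355 ± 0.0971 CPM, and Sox10, at 0.0321 ± 0.0267 and 0.0642 ± 0.0466 CPM, was too low to be tested. The 16 markers together summed to 73.5, 79.8, 206 and 222 CPM in control and 315, 330, 473 and 443 CPM with ID-8. These ranges do not overlap (two-sided exact permutation test, p = 0.0286, the smallest that 4 against 4 libraries allow). This test, here and for other summed lists, shuffled libraries across the culture experiments and so ignored their pairing.

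Other genes named for their small p among those that rose are expressed in glia, which was not tested as a group. Gjc3, a gap junction protein of myelinating glia, read 1.47, 2.04, 2.06 and 1.60 CPM in control and 19.6, 22.5, 62.6 and 48.4 CPM with ID-8 (log2 4.41 ± 0.39, edgeR, adjusted p = 5.67e-06). The creatine synthesis enzyme Gatm (3.11 ± 0.32), Cmtm5 and the carbonic anhydrase Car2 also rose. Bcan, the brain proteoglycan brevican, read 17.3, 16.0, 28.3 and 28.3 CPM in control and 95.9, 112, 186 and 185 CPM with ID-8. Its difference of 2.69 ± 0.25 (adjusted p = 7.37e-06) was nearly the same in experiment 1 (2.65) and experiment 2 (2.71).

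Of 14 neurotrophic factor and receptor genes tested, 7 were called higher and 1 lower, with a median of 1.19. Gfra2, the co-receptor for neurturin, read 8.97, 9.13, 12.2 and 11.4 CPM in control and 46.1, 54.5, 82.3 and 80.1 CPM with ID-8. The groups do not overlap, at a difference of 2.65 ± 0.22 (edgeR, adjusted p = 3.52e-06). Its signalling partner Ret rose by 1.29 ± 0.28 and the GDNF co-receptor Gfra1 by 1.20 ± 0.30. The NT-3 receptor Ntrk3 (0.51 ± 0.15), the BDNF receptor Ntrk2 (1.31 ± 0.43) and the ligand Gdnf (1.18 ± 0.38) rose too, with overlapping groups in Ntrk2. The Ntrk2 call was lost without control replicate 1 (1.04) or 2 (1.07), or ID-8 replicate 2 (1.39), 3 (1.10) or 4 (1.15). The ligand neurotrophin-3, Ntf3, fell from 3.90 ± 0.919 to 0.714 ± 0.138 CPM (-2.44 ± 0.27, adjusted p = 3.96e-05).

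Genes that mark neurons in general did not share a single response. Of 16 pan-neuronal genes 1 was called higher and 0 lower, with a median of 0.49, and of 20 presynaptic genes 1 higher and 0 lower, with a median of 0.51. The block raised the presynaptic count to 3. The neurofilament gene Nefl, the pan-neuronal gene that was called, read 400.0, 374, 213 and 198 CPM in control and 1294, 1236, 275 and 316 CPM with ID-8. The high values all belong to experiment 1, and the groups overlap. The Nefl difference of 1.40 ± 0.45 (edgeR, adjusted p = 0.043) lost its call without ID-8 replicate 1 (1.07) or 2 (1.09), or control replicate 2 (1.53), 3 (1.27) or 4 (1.27). The presynaptic gene called, the syntaxin Stx1a (0.81 ± 0.26), lost its call without the same libraries.

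The culture experiments differed in this respect, which was tested after the values had been seen. In a fit with 2 libraries per group and experiment, 642 genes (3.64%) responded more positively in experiment 2 and 1417 (8.02%) more negatively. Standard errors and p-values of this fit rest on the spread between libraries of the same experiment. They do not measure how much a repeat of an experiment would vary, here or wherever the experiments' responses are compared. This also holds for the fits of each experiment alone. Among the latter were 8 of 16 pan-neuronal, 14 of 20 presynaptic and 12 of 21 Hox genes. So were 9 of 23 voltage-gated channel genes, 8 of 16 astrocyte markers and 8 of 18 matrix genes. Summed pan-neuronal markers read 4447 and 4131 CPM in control and 8340 and 7928 CPM with ID-8 in experiment 1. In experiment 2 they read 3792 and 3461 CPM in control and 3357 and 3642 CPM with ID-8. ID-8 libraries thus lay above control in experiment 1 and among the controls in experiment 2, and over all 8 libraries the exact permutation test gave p = 0.4. For Nefl the difference between the experiments' responses was -1.19 ± 0.24 (edgeR, adjusted p = 0.00772). The experiments also began apart. Gfap, the astrocyte filament gene, read 192 and 268 CPM in the controls of experiment 1 and 1453 and 1639 CPM in those of experiment 2. With ID-8 it read 852 and 714 CPM in experiment 1 and 551 and 589 CPM in experiment 2, higher than control in the first and lower in the second. The responses differed by -3.21 ± 0.31 (edgeR, adjusted p = 0.000195), and the pooled log2 difference was -0.39 ± 0.51 (adjusted p = 0.648).

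**Figure D2:**
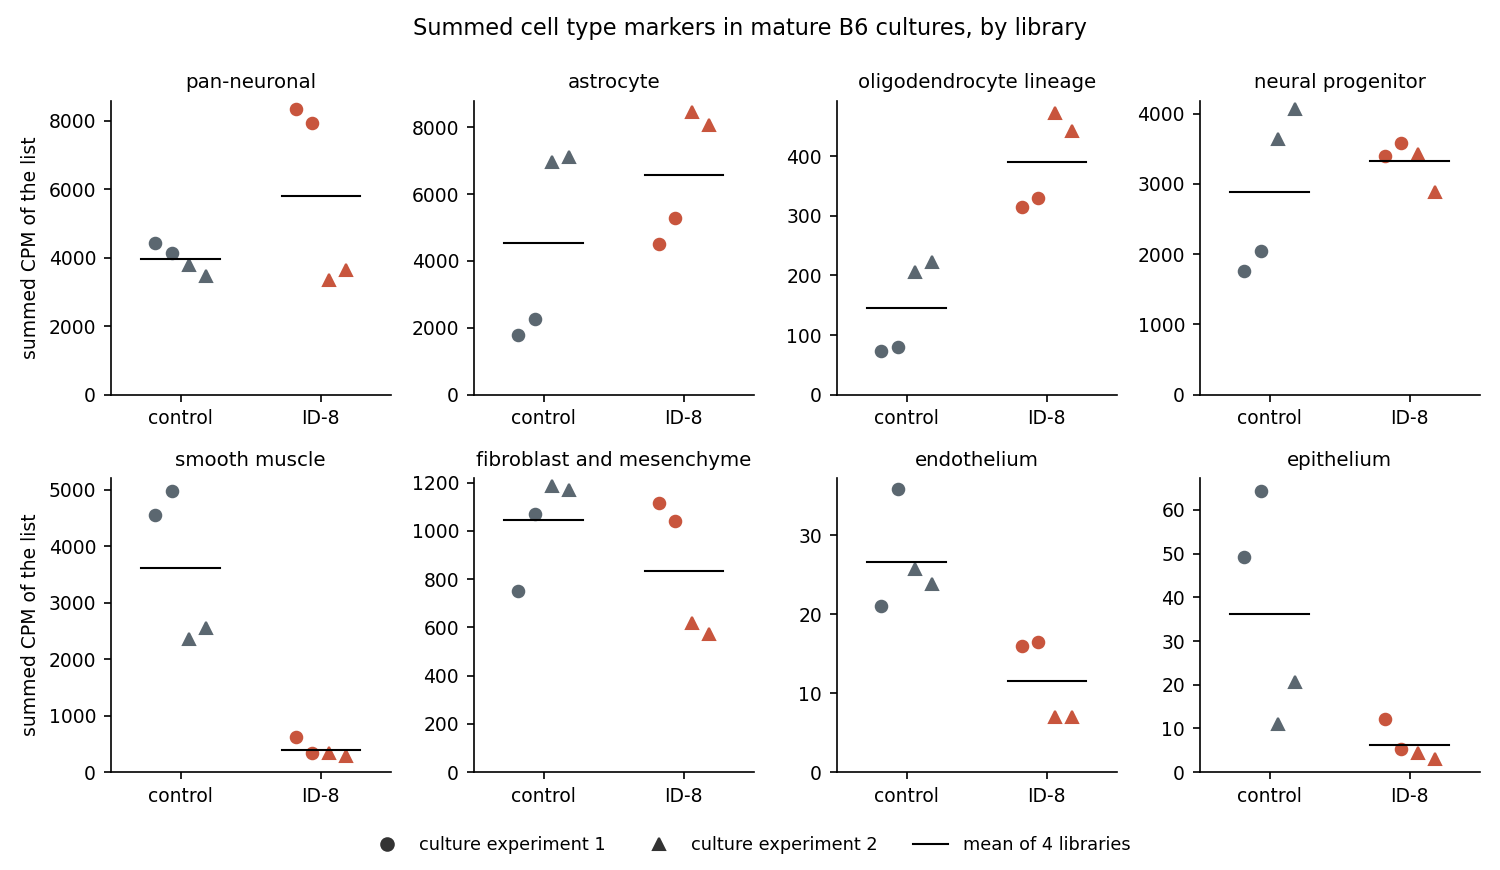
Summed CPM of 8 lists of cell type markers in each B6 maturation library, for control (grey) and ID-8 (red), with circles for culture experiment 1, triangles for experiment 2 and bars for the mean of 4 libraries. Smooth muscle sums fall from 2357 to 4969 CPM in control to 294 to 619 CPM with ID-8, oligodendrocyte lineage sums rise in both experiments, and pan-neuronal sums lie above control in experiment 1 alone.

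Of 18 genes of GABA and glycine signalling 5 were higher and 0 lower (8 higher with the block), with a median of 0.46, though 9 of the 18 responded more negatively and 2 more positively in experiment 2. The glycine transporter Slc6a9 (1.47 ± 0.21) and the receptor subunit Gabra2 (1.63 ± 0.25) were among them. Slc6a9 read 82.3, 70.1, 63.0 and 57.9 CPM in control and 122, 156, 238 and 241 CPM with ID-8, and the groups do not overlap. Of 21 genes of glutamate receptors and the postsynaptic density, 3 were higher and 1 lower, with a median of 0.01. The list's median was 0.37 in experiment 1 and -0.46 in experiment 2, where 9 of the 21 responded more negatively. The 3 were Gria1 (1.35 ± 0.24), Gria4 (1.11 ± 0.21) and Grik1 (2.11 ± 0.43), and the responses of Gria1 differed by -0.93 ± 0.26 between the experiments (edgeR, adjusted p = 0.0359). The neuropeptide list had 4 of 19 higher and 0 lower (8 higher with the block). Its median was 1.0 in experiment 1 and 0.13 in experiment 2, where 5 of the 19 responded more negatively. Npy, which encodes neuropeptide Y, read 12.6, 15.9, 7.01 and 6.04 CPM in control and 126, 95.1, 43.2 and 47.3 CPM with ID-8 (2.91 ± 0.42, edgeR, adjusted p = 0.000285). Of 21 Hox genes, which set position along the body axis, 5 were higher and 1 lower (6 and 2 with the block). The Hox median was 1.09 in experiment 1 and -0.22 in experiment 2, where 12 of the 21 responded more negatively. Hoxb9 rose from 15.3 ± 0.598 to 51.2 ± 7.21 CPM and Hoxa7 from 4.40 ± 0.808 to 12.2 ± 2.03 CPM, while Hoxb2 fell from 19.3 ± 0.795 to 11.4 ± 2.75 CPM. Astrocyte markers had 3 of 16 higher and 1 lower (9 higher and 1 lower with the block). Their median was 1.4 in experiment 1 and 0.74 in experiment 2, where 8 of the 16 responded more negatively. The calcium-binding protein S100b (1.95 ± 0.31), the lipid carrier Apoe (1.04 ± 0.23) and the glutamate transporter Slc1a2 (1.94 ± 0.61) rose, the last with overlapping groups, and the chaperone Clu fell by 1.0 ± 0.23 on the log2 scale. The Slc1a2 call was lost without control replicate 1 (1.62) or 2 (1.65), or ID-8 replicate 3 (1.66) or 4 (1.71).

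Of 14 fatty acid synthesis genes 7 were higher and 0 lower, with a median of 0.57. The stearoyl-CoA desaturase Scd1 read 141, 154, 164 and 158 CPM in control and 500.0, 526, 505 and 439 CPM with ID-8. The groups do not overlap, at 1.68 ± 0.21 (edgeR, adjusted p = 9.03e-05). Scd2 (1.30 ± 0.32), the lipogenic regulator Mid1ip1 (0.85 ± 0.15), the desaturase Fads1 (0.60 ± 0.11) and the fatty acid synthase Fasn (0.64 ± 0.18) followed. Of 19 genes of cholesterol synthesis 6 were higher and 0 lower (10 higher with the block), with a median of 0.48, led by the squalene epoxidase Sqle (0.74 ± 0.14). The cholesterol median was 0.85 in experiment 1 and 0.20 in experiment 2, where 5 genes responded more negatively and 1 more positively.

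The integrated stress response, through which cells induce amino acid transport and synthesis, had 7 of 18 genes higher and 0 lower, with a median of 0.53. Its median was 0.17 in experiment 1 and 0.94 in experiment 2, where 4 genes responded more positively. The cystine transporter Slc7a11 read 17.1, 21.7, 24.7 and 24.0 CPM in control and 49.0, 110, 523 and 324 CPM with ID-8. Every ID-8 library lies above every control, and those of experiment 2 lie highest (3.52 ± 0.70, edgeR, adjusted p = 0.00292). The difference between the experiments' responses was 2.07 ± 0.51 (adjusted p = 0.0196). The leucine transporter Slc7a5 (1.21 ± 0.26), its partner Slc3a2 (0.93 ± 0.26), the serine enzyme Psat1 (0.93 ± 0.18) and asparagine synthetase Asns (0.53 ± 0.15) rose as well.

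Genes of the unfolded protein response, the other arm of protein stress, were lower or not called. Of 14 tested, 0 were higher and 5 lower (8 lower with the block), with a median of -0.70. Pdia4, a disulfide isomerase of the endoplasmic reticulum, read 259, 317, 221 and 222 CPM in control and 93.2, 96.3, 93.2 and 91.9 CPM with ID-8. The groups do not overlap, at -1.44 ± 0.13 (edgeR, adjusted p = 6.06e-06). The chaperone Hspa5 was not called (-0.89 ± 0.37, edgeR, adjusted p = 0.107), but with the experiment as a block it was called lower (-0.73 ± 0.21, adjusted p = 0.018), as it was without control replicate 3 (-1.13) or 4 (-1.11). It read 1895 and 2216 CPM in the controls of experiment 1, against 605 to 850 CPM in the other 6 libraries. The list's median was -1.02 in experiment 1 and -0.08 in experiment 2. In the test between the experiments 9 of the 14 genes responded more positively in experiment 2.

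**Figure D3:**
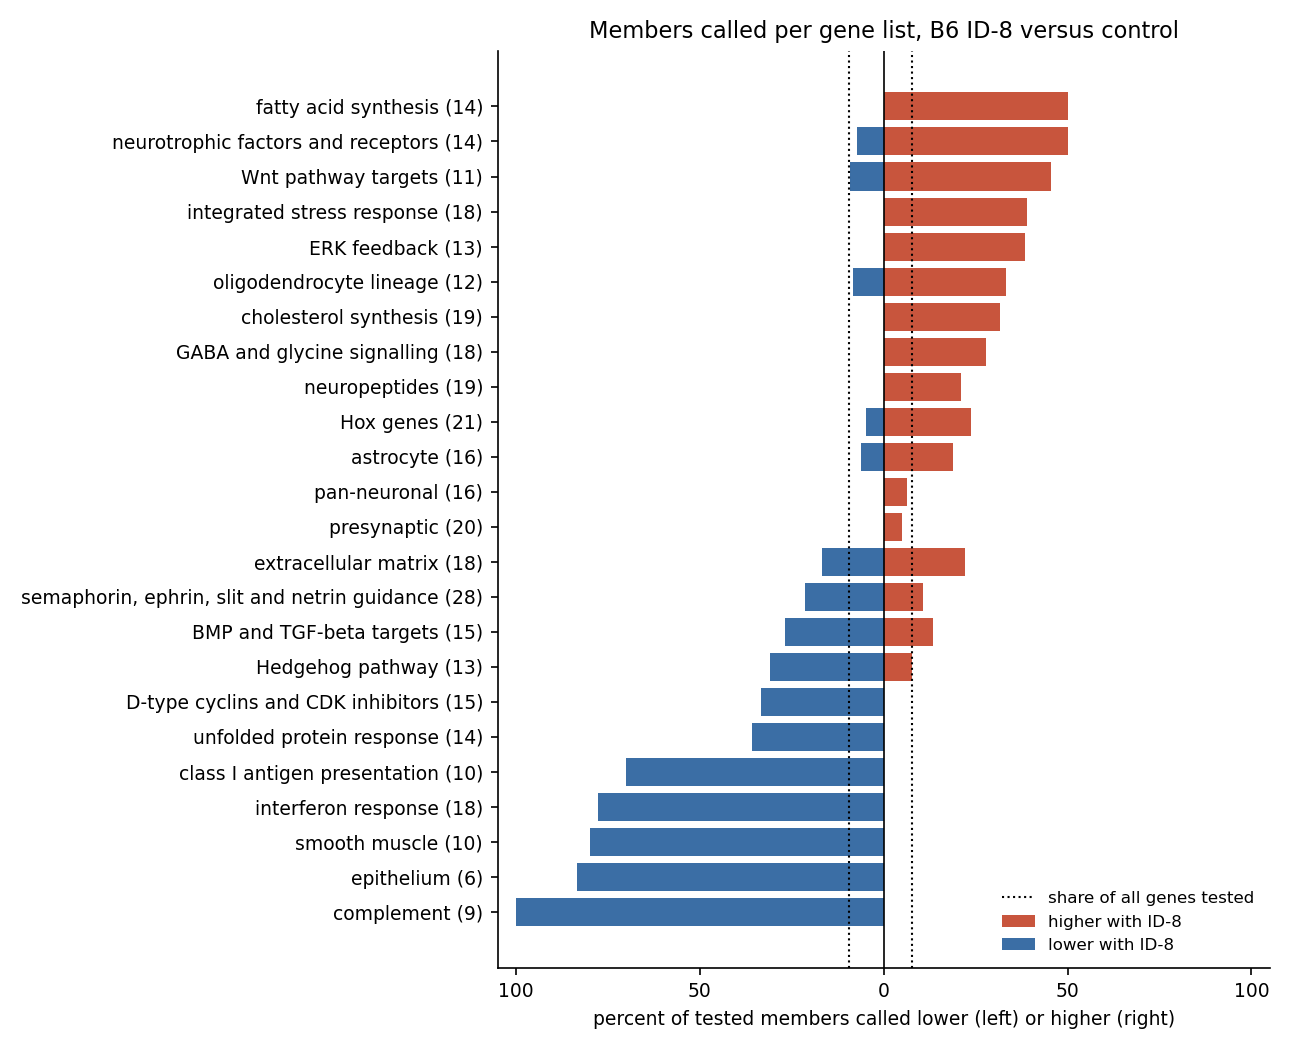
Percent of the tested members of 24 gene lists called higher (red, right) or lower (blue, left) with ID-8, with the number tested in parentheses. Dotted lines mark the share of all genes tested, 7.71% higher and 9.41% lower. Lipid synthesis, the integrated stress response and ERK feedback have members called higher and none lower, whereas complement, smooth muscle and interferon response have members called lower and none higher.

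Of 13 negative feedback genes of the ERK cascade tested, 5 were called higher and 0 lower (6 and 2 with the block), with a median of 0.30. Spry2, which dampens receptor kinase signalling, read 47.7, 49.2, 46.0 and 43.0 CPM in control and 123.8, 118.2, 85 and 77.7 CPM with ID-8 (1.12 ± 0.15, edgeR, adjusted p = 0.000123). The ERK phosphatase Dusp4 rose by 1.5 ± 0.24. Of 11 Wnt target and feedback genes 5 were higher and 1 lower. Lgr5 (0.87 ± 0.28) and Nkd2 (1.32 ± 0.28) rose, and the other 3, Lef1, Dkk1 and Wif1, averaged under 2 CPM in both groups.

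Some targets of Hedgehog and BMP signalling were lower. Of 13 Hedgehog genes 4 were lower and 1 higher (6 and 2 with the block). Gli1, the transcription factor that reports pathway activity, read 4.94, 5.47, 2.21 and 1.44 CPM in control and 0.807, 0.388, 0.193 and 0.251 CPM with ID-8 (-3.11 ± 0.59, edgeR, adjusted p = 0.00217). The co-receptors Cdon (-1.65 ± 0.25) and Gas1 (-2.12 ± 0.41) fell, while the ligand Shh rose from 6.83 ± 3.22 to 14.9 ± 7.46 CPM with overlapping groups. Of 15 BMP and TGF-beta genes 4 were lower and 2 higher (6 and 4 with the block). The BMP targets Id3 (-2.76 ± 0.45), Id1 (-2.32 ± 0.45) and Smad6 (-2.17 ± 0.42) fell, and the BMP antagonist Nog (1.69 ± 0.44) and the modulator Bmper (1.02 ± 0.20) rose. Nog lost its call without ID-8 replicate 2 (1.31) and in experiment 2 alone (0.39), and its responses differed by -1.84 ± 0.27 between the experiments (edgeR, adjusted p = 0.0016). Id3 read 77.7, 81.4, 50.7 and 79.5 CPM in control and 18.9, 11.1, 6.15 and 6.66 CPM with ID-8, so the groups do not overlap.

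Genes linked to the substrates of DYRK1A moved in part. The cyclin Ccnd1, which drives entry into the cell cycle, read 375, 381, 289 and 305 CPM in control and 85.1, 74.1, 64.5 and 64.1 CPM with ID-8. It fell by 2.23 ± 0.33 on the log2 scale (edgeR, adjusted p = 0.000389) and its groups do not overlap. Of 15 genes of D-type cyclins and CDK inhibitors 5 were lower and 0 higher (8 and 1 with the block), among them the cyclin partner Cdk6 (-2.02 ± 0.38) and Ccnd3 (-0.94 ± 0.22). S phase and mitosis genes had 1 of 25 higher and 0 lower (1 and 4 with the block). Of 13 genes of calcineurin and NFAT 3 were higher and 2 lower. The calcineurin regulator Rcan1 (0.54 ± 0.14) and the catalytic subunit Ppp3ca (0.62 ± 0.18) rose, and Nfat5 (-0.74 ± 0.19) and Nfatc4 (-0.96 ± 0.31) fell. Of 13 DYRK, CLK and HIPK kinases 4 were lower and 2 higher. Hipk3 (-0.99 ± 0.16) and Dyrk1b (-0.57 ± 0.16) fell, and Hipk4 (1.06 ± 0.20) and Dyrk3 (0.69 ± 0.15) rose.

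Contractile genes of smooth muscle had some of the deepest decreases. Of 10 tested, 8 were lower and 0 higher, with a median of -2.23. Acta2, smooth muscle actin, read 1757, 2086, 1082 and 1122 CPM in control and 229, 127, 135 and 111 CPM with ID-8. The groups do not overlap, at -3.33 ± 0.45 (edgeR, adjusted p = 0.000193). The actin-binding protein Tagln fell by 3.59 ± 0.52, calponin Cnn1 by 2.73 ± 0.41 and the myosin light chain Myl9 by 2.74 ± 0.33 on the log2 scale. Their sum was 2357 to 4969 CPM in control and 294 to 619 CPM with ID-8 (two-sided exact permutation test, p = 0.0286). Fibroblast markers moved less. Of 13 tested 3 were lower and 0 higher, with a median of -0.31, and their sums overlap between the groups.

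Of 7 endothelial markers tested 2 were lower, the VEGF receptor Kdr (-3.43 ± 0.43) and the cadherin Cdh5 (-1.64 ± 0.54). The 10 endothelial markers summed to 21.0 to 35.8 CPM in control and 6.96 to 16.5 CPM with ID-8 (exact permutation test, p = 0.0286). Of 6 epithelial markers 5 were lower. The keratin Krt8 read 12.7, 18.6, 1.97 and 5.00 CPM in control and 3.26, 0.42, 0.458 and 0.352 CPM with ID-8. The groups overlap, 33.3% of the Krt8 sequence is shared with other genes, and the log2 difference was -3.10 ± 0.82 (edgeR, adjusted p = 0.017). The Krt8 call was lost in a fit of the 8 B6 libraries alone, without ID-8 replicate 2 (-2.84) and without control replicate 2 (-2.56). Krt18, at -2.94 ± 0.76, lost its call in the fit of the 8 B6 libraries. The cadherin Cdh1 fell by 2.38 ± 0.51 with no overlap.

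Outside the marker lists, the gene with the smallest p among those that fell was Zfp185, an actin-associated protein. It read 6.44, 7.51, 6.74 and 6.96 CPM in control and 0.867, 0.969, 1.25 and 0.93 CPM with ID-8 (-2.77 ± 0.17, edgeR, adjusted p = 2.3e-07). The groups do not overlap. Folr1, a folate receptor on the choroid plexus list, fell from 14.2 ± 2.48 to 0.467 ± 0.115 CPM, while 2 of the 9 genes tested on that list, Msx1 and Ttr, were higher. The RNA-binding protein Igf2bp1, the sulfotransferase Sult1a1 (-3.88 ± 0.34), the glutathione transferase Gstt1, the secreted protein C1qtnf3 (-3.31 ± 0.22) and the endotoxin receptor Tlr4 also fell.

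Lama5, the laminin alpha-5 chain of basement membranes, read 136, 153, 125 and 162 CPM in control and 20.0, 21.6, 26.2 and 27.0 CPM with ID-8. The groups do not overlap, at -2.60 ± 0.18 (edgeR, adjusted p = 5.98e-07). The type IV collagens Col4a3 (-3.42 ± 0.29) and Col4a1 (-1.05 ± 0.26) and the laminin Lamc1 (-0.92 ± 0.24) fell too. In the matrix list of 18 genes 3 were lower and 4 higher (9 and 4 with the block). The 4 were Lama1 and the proteoglycans Bcan, Ncan (1.73 ± 0.31) and Acan. The list's median was -0.15 in experiment 1 and -1.12 in experiment 2, where 8 of the 18 responded more negatively. Among 28 axon guidance genes 6 were lower and 3 higher (6 and 6 with the block). The repellents Sema3c (-2.0 ± 0.21), Slit2 (-1.32 ± 0.22), Slit3 (-1.04 ± 0.21), Sema3d, Sema3e and Sema3f fell, while the receptors Unc5b (1.04 ± 0.14), Ephb1 (1.20 ± 0.19) and Epha7 (1.08 ± 0.20) rose.

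Complement, interferon response and class I genes were mostly lower. All 9 complement genes tested were lower, with a median of -2.50, though for 6 of them over 20% of the sequence is shared with other genes. C3, the central complement component, shares none. It read 2697, 3425, 5032 and 6007 CPM in control and 333, 373, 434 and 476 CPM with ID-8 (-3.41 ± 0.45, edgeR, adjusted p = 0.000131). Cd59a, which protects cells from complement attack, read 45.2, 39.4, 24.4 and 30.4 CPM in control and 2.09, 1.58, 1.40 and 2.16 CPM with ID-8. It had 1 of the deepest decreases, at -4.26 ± 0.27 (adjusted p = 2.3e-07), and in both genes the groups do not overlap.

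In the interferon response list, 14 of 18 genes fell and 0 rose, with a median of -1.35 (15 and 1 with the block). Ddx58, the RNA sensor RIG-I, read 22.8, 26.9, 33.2 and 33.3 CPM in control and 7.23, 8.04, 9.60 and 8.74 CPM with ID-8. Its difference was -1.79 ± 0.21 (edgeR, adjusted p = 5.94e-05), with no overlap. Irf7, the factor that amplifies interferon production, fell by 3.16 ± 0.55, the deconjugase Usp18 by 2.42 ± 0.48 and the tethering factor Bst2 by 3.01 ± 0.64 on the log2 scale. The ubiquitin-like modifier Isg15 fell from 6.03 ± 4.30 to 1.23 ± 0.801 CPM with overlapping groups (-2.30 ± 0.75, adjusted p = 0.0474). The antiviral gene Rsad2 stood at 3.65 ± 1.42 CPM in control and 8.58 ± 2.17 CPM with ID-8 (adjusted p = 0.0837). Summed over the 18 genes, control libraries read 380 to 428 CPM and ID-8 libraries 181 to 202 CPM (exact permutation test, p = 0.0286).

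Class I antigen presentation, which displays peptides on the cell surface and is itself induced by interferon, had 7 of 10 genes lower and 0 higher, with a median of -1.17. B2m, the light chain of every class I molecule, read 266, 259, 209 and 206 CPM in control and 79.5, 73.1, 90.3 and 91.1 CPM with ID-8 (-1.49 ± 0.20, edgeR, adjusted p = 0.000151). The heavy chain H2-K1 (-1.46 ± 0.17), of which 24.8% of the sequence is shared, the chaperone Tapbp (-1.33 ± 0.17) and the immunoproteasome subunit Psmb8 (-2.37 ± 0.40) also fell. In B2m and H2-K1 the groups do not overlap.

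The promoters of these genes were scanned for the interferon-stimulated response element, searched as GAAA, any 2 bases and GAAA again, on both strands of the 250 bases before the start site (RefSeq, GRCm38.p6). Of 18 interferon response genes 15 had a promoter in the reference table, and 8 of them (53.3%) held a match, as did 2 of 8 class I genes (25.0%) and 3.46% of 27025 genes in all. Matches may overlap and are a description of the sequence, not of binding. The lists hold genes of the interferon system, so these shares do not bear on the response to ID-8. Rsad2, which was not called and stood higher with ID-8, also held a match. The 200 bases before the start site of 3 genes that fell together are shown, with matches in capitals, 5′ to 3′ on the strand of the gene. They lie at chr4:156200819-156201018 (minus strand) for Isg15, chr8:71537473-71537672 (minus strand) for Bst2 and chr2:122147487-122147686 (plus strand) for B2m.
Isg15: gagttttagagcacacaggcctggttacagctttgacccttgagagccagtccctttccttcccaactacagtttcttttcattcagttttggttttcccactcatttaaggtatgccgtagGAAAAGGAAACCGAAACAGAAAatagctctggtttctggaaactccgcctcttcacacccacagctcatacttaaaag
Bst2: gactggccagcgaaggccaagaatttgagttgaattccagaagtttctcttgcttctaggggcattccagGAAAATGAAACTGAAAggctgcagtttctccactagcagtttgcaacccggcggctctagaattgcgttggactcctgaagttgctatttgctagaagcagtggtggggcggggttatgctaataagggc
B2m: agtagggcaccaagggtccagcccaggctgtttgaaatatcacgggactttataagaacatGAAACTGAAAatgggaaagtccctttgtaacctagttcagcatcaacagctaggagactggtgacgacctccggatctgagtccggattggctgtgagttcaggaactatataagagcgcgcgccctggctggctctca
Isg15 carries 3 overlapping matches, Bst2 a pair that overlaps and B2m a single one.

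The same comparison in WSB cultures of this stage, with 4 control and 4 ID-8 libraries, gave 485 genes higher (2.86%) and 514 lower (3.03%). Of the genes called higher in B6, 295 (22.6%) were called higher in WSB, which are 60.8% of the WSB calls. Of those called lower in B6, 379 (23.8%) were called lower in WSB, or 73.7% of the WSB calls. Only 1 and 9 were called in the opposite direction. A test of the difference of the responses, WSB minus B6, called 64 genes more positive in WSB (0.377%) and 14 more negative (0.0826%), with 1499 genes at an unadjusted p under 0.05. With the block the counts were 242 (1.43%) and 81 (0.478%). Leaving out single libraries gave 32 (without WSB control replicate 3) to 125 (without WSB ID-8 replicate 3) and 6 (without WSB ID-8 replicate 2) to 17. Of the 64 genes, 59 were called lower in B6.

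Interferon response, class I and contractile genes were among these differences. Of 18 interferon response genes 5 were more positive in WSB (13 with the block), as were 2 of 10 class I genes (6 with the block) and 3 of 10 smooth muscle genes (9 with the block). In WSB itself 5 of the 18 interferon genes were called higher with ID-8 and 0 lower, with a median of 0.48, against 0 higher and 14 lower in B6. Ifi44, an interferon-induced gene, read 12.8, 14.7, 5.01 and 7.02 CPM in B6 control and 0.628, 0.711, 0.748 and 0.804 CPM with ID-8. In WSB it read 4.25 to 11.5 CPM in control and 12.9 to 29.6 CPM with ID-8, so the strains moved in opposite directions (difference 5.07 ± 0.57, edgeR, adjusted p = 0.00115). Ddx58 read 21.9 to 31.9 CPM in WSB control and 23.1 to 44.0 CPM with ID-8 (difference 1.95 ± 0.29, adjusted p = 0.00756).

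B2m read 182 to 275 CPM in WSB control and 182 to 304 CPM with ID-8, which overlap, and the difference from B6 was 1.55 ± 0.28 (edgeR, adjusted p = 0.0196). That call was lost without WSB ID-8 replicate 2 (1.44) or WSB control replicate 3 (1.45) or 4 (1.48). Myl9 read 138 to 267 CPM in WSB control and 94.5 to 318 CPM with ID-8 (difference 2.84 ± 0.44, adjusted p = 0.00826). Cd59a fell in both strains, by 4.26 in B6 and 1.13 in WSB on the log2 scale, a difference of 3.13 ± 0.34 (adjusted p = 0.00115). Crym, a thyroid hormone-binding protein, fell in B6 by 2.79 ± 0.27 on the log2 scale and stood at 0.14 in WSB (difference 2.93 ± 0.36, adjusted p = 0.00242).

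Of the genes that responded more positively in B6, Ptn rose in both strains, by 2.80 in B6 and 0.92 in WSB (difference -1.88 ± 0.21, edgeR, adjusted p = 0.00115). WSB libraries read 18.0 to 21.2 CPM in control and 30.6 to 46.1 CPM with ID-8, without overlap. Grem1 read 18.5 to 26.9 CPM in WSB control and 22.1 to 34.0 CPM with ID-8, so its WSB control level was near that of B6 with ID-8 (difference -1.68 ± 0.21, adjusted p = 0.00242). C3, in contrast, fell in B6 and responded more positively in WSB (difference 3.20 ± 0.59, edgeR, adjusted p = 0.0216). Its call was lost without B6 ID-8 replicate 1 (3.10) or 2 (3.17) or B6 control replicate 4 (2.97). The same happened without WSB control replicate 1 (3.14), 3 (3.19) or 4 (3.07).

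**Figure D4:**
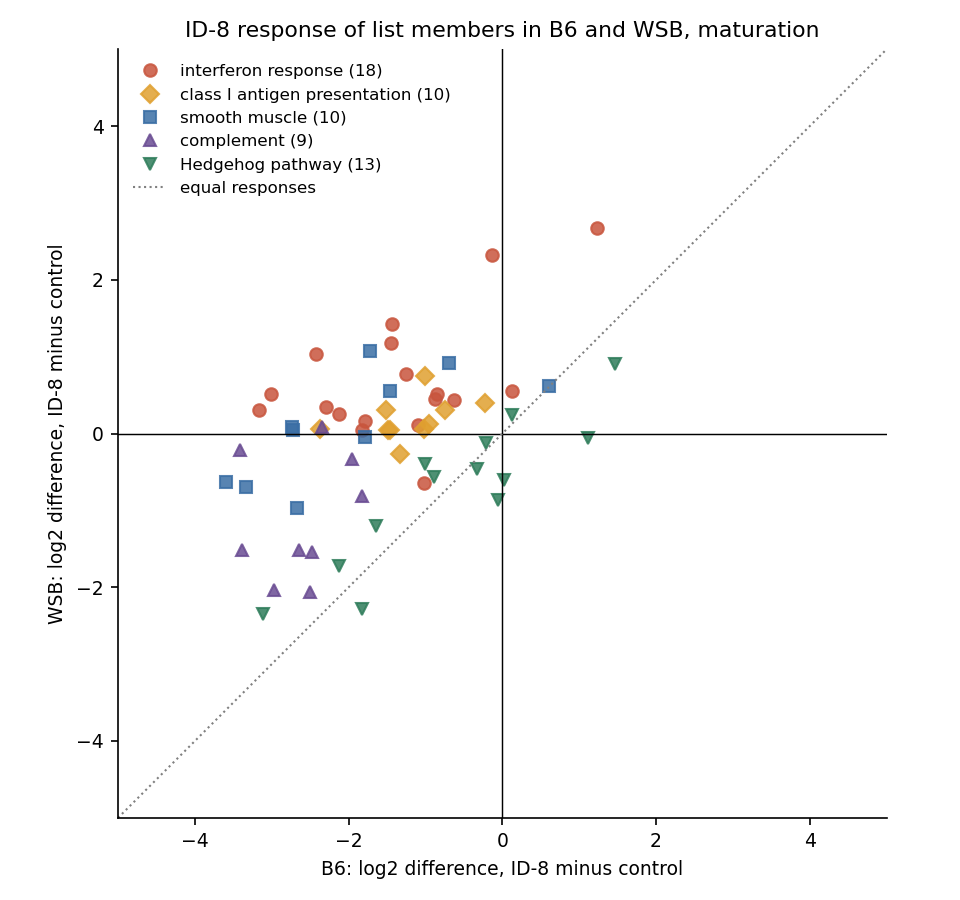
Log2 difference between ID-8 and control in B6 (horizontal) and WSB (vertical) for each tested member of 5 gene lists, with the number of genes in parentheses. The dotted line marks equal responses. Interferon response members lie mostly at negative values in B6 and positive values in WSB (medians -1.35 and 0.48), while Hedgehog members lie near the line (medians -0.33 and -0.57).

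Responses at maturation were also set against those at the progenitor stage in B6, with 6 control and 6 ID-8 libraries there. In a joint fit of 18720 genes, 1695 (9.05%) responded more positively at maturation and 2008 (10.7%) more negatively. The stages come from different library batches, so stage and batch cannot be told apart. With the culture sets as a replicate block the counts were 3870 and 4138.

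Smooth muscle genes moved in opposite directions at the 2 stages. At the progenitor stage 16.6% of genes were called higher with ID-8 and 14.7% lower. Of 10 smooth muscle genes, 6 were called higher and 1 lower there, with a median of 2.15, against 0 higher and 8 lower at maturation, and 8 of the 10 differed between the stages. Acta2 averaged 43.9 ± 25.0 CPM in progenitor control and 491 ± 373 CPM with ID-8 (SD, n = 6 each), a log2 difference of 3.45 (edgeR, adjusted p = 1.78e-05). Its change at maturation differed from that by -6.80 ± 0.83 (adjusted p = 2.55e-06). Of 13 fibroblast genes 7 were higher at the progenitor stage and 8 were more negative at maturation.

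At the progenitor stage 8 of 16 pan-neuronal genes were lower, with a median of -0.89, and 13 of 20 presynaptic genes, with a median of -1.03. At maturation 6 of the 16 and 12 of the 20 responded more positively, although 1 gene of each list was called higher there, and the medians in experiment 2 were 0.04 and -0.18. In the unfolded protein response 4 of 14 genes were higher and 1 lower at the progenitor stage, and 11 of 14 responded more negatively at maturation. The median of these genes at maturation was -1.02 in experiment 1 and -0.08 in experiment 2. The galanin receptor Galr1 read 0.369 to 1.55 CPM in progenitor control and 0.0 to 0.127 CPM with ID-8. In mature cultures it rose from 0.947 ± 0.284 to 7.23 ± 1.13 CPM (difference of responses 6.95 ± 0.63, adjusted p = 2.94e-08). Gas6, a ligand of TAM receptors, rose by 2.23 at the progenitor stage and fell by 1.41 ± 0.17 on the log2 scale at maturation (difference -3.66 ± 0.27, adjusted p = 9.04e-10).

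**Figure D5:**
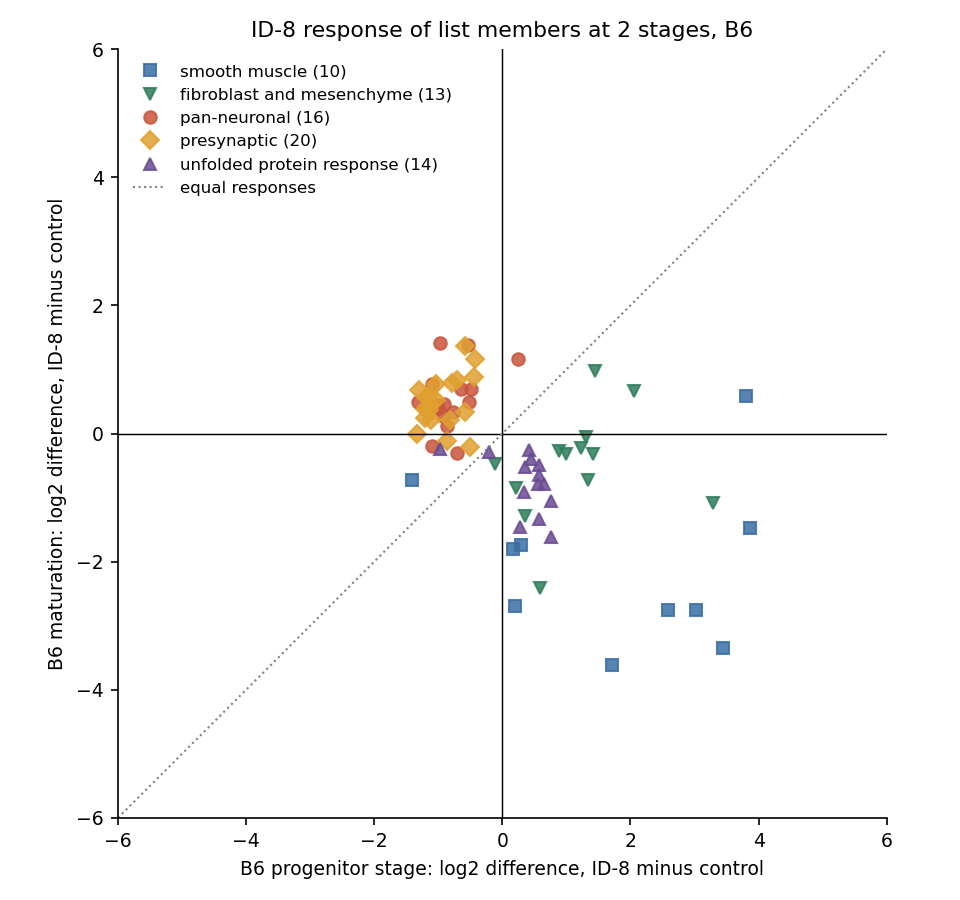
Log2 difference between ID-8 and control at the B6 progenitor stage (horizontal) and in mature B6 cultures (vertical) for each tested member of 5 gene lists, with the number of genes in parentheses and a dotted line of equal responses. Most smooth muscle members are positive at the progenitor stage and negative at maturation, and most pan-neuronal and presynaptic members the reverse.

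Against the uncut cultures of the axon stage in B6, with 4 control and 4 ID-8 libraries, 64 genes responded more positively at maturation (0.342%) and 0.63% of genes more negatively, and 2595 had an unadjusted p under 0.05. With the culture sets as a replicate block the counts were 1293 and 1659, and without single B6 maturation libraries they ran from 15 (without control replicate 2) to 88 and from 49 (without control replicate 2) to 122. Of the genes called higher and lower at maturation, 1305 and 1592 were tested at the axon stage, and 0 were called there in either direction. The small number of differences therefore does not show that the responses were alike. Gatm (2.69, edgeR, adjusted p = 9.65e-05) responded more positively at maturation. Igfbpl1 (-4.12, adjusted p = 0.00101) and Actb (-1.0, adjusted p = 0.00101), the gene of cytoplasmic actin, responded more negatively.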

How the data were processed

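The cultures' poly(A) RNA was sequenced as stranded libraries with paired reads, per the labels' protocols. Expected counts per gene were deposited by the authors, and the submitters' processing notes name Bowtie2, RSEM, featureCounts, limma and GRCm38 without versions. Of the values 9.318% were not whole, and counts were rounded. Repeat runs of 1 library were summed, giving 70 libraries. Genes without a symbol held 0.2652% of counts. They stayed in the fits and were left out only when genes were named.

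Groups were taken from the labels. The main test was edgeR 4.0.16 (R 4.3.3): TMM factors, filterByExpr, a robust quasi-likelihood fit of the 16 maturation libraries by group, and Benjamini-Hochberg adjustment over all genes tested. Strain and stage differences were interaction contrasts, the latter fitted on all B6 libraries. Summed markers had two-sided exact permutation tests over 70 arrangements of the B6 maturation libraries, which did not keep to the culture experiments. Scripts were tested on simulated data. Shared sequence was the percent of 31-base words of a gene's GENCODE M21 transcripts found in other genes, and over 20% counted as shared.

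Culture experiments, from the culture names, paired the libraries. Control and ID-8 deviations correlated in 8 of 8 same-experiment pairs (0.223 to 0.637) and in 0 of 8 others (-0.614 to -0.197). Within an experiment, same-numbered pairs (0.233 to 0.637) and differently numbered pairs (0.223 to 0.534) did so alike, so the number adds no pairing of its own.

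The rule for named genes took the 15 of smallest p in each direction at 1.5-fold or more, and the 6 per direction of each difference. Both kinds had to be called and to average 1 or more in log2 CPM. The rule also took up to 4 members per described list, ranked by p, and Dyrk1a. Neither a call nor that level was required of these, and Gpr17, for example, lies below it. Some genes that the rule takes are not reported here. Other genes named were chosen after their values were seen. Members, lists and tests were chosen with earlier results of these data known. Alternatives were RLE factors, DESeq2 1.42.0, no low-count filter, experiment blocks, each experiment alone, the 8 B6 libraries alone and leaving out each library.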

Additional observations from a re-analysis of the deposited data

Results flagged for a closer look

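Of 164 groups of 4 libraries checked, 10 held a library far from the other 3, and chance marks about 1 in 20 such groups. In control, Grem1 read 6.14 CPM in replicate 2 against 5.28 to 5.33 CPM in the others, Psat1 read 227 CPM and Hoxb9 14.4 CPM in replicate 2, and Id3 read 50.7 CPM in replicate 3. With ID-8, Car2 read 34.1 CPM in replicate 4, Krt8 read 3.26 CPM in replicate 1, and replicate 2 read 5.88 CPM for Cdk6 and 95.9 CPM for Dusp4. Summed smooth muscle markers stood at 619 CPM in ID-8 replicate 1, and summed interferon response genes at 428 CPM in control replicate 2.

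The log2 response to ID-8 differed between WSB and B6 (edgeR interaction contrast, WSB minus B6). It was more negative in WSB for Ptn (-1.88), Grem1 (-1.68), Fjx1 (-1.57), Gjc3 (-2.78) and Pcsk6 (-1.29). The Gjc3 call was lost without B6 ID-8 replicate 4 (-2.65), B6 control replicate 1 (-2.70) or 4 (-2.75), WSB ID-8 replicate 1 (-2.64) or 2 (-2.81), or WSB control replicate 1 (-2.66) or 2 (-2.60). It was more positive in WSB for Cd59a (3.13), Lama5 (1.82), Pdia4 (1.18), Myl9 (2.84), Ddx58 (1.95), H2-K1 (1.52), B2m (1.55), C3 (3.20), Cdh1 (3.96), Ifi44 (5.07), Crym (2.93), Igfbpl1 (3.29) and Ahnak2 (1.66). The Cdh1 call was lost without B6 ID-8 replicate 4 (3.80) or WSB control replicate 3 (4.01) and in experiment 2 alone (3.56), and Ahnak2 in experiment 1 alone (1.26).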

How the results depend on the processing

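For ID-8 against control in B6, counts higher and lower were 2270 and 2553 with the experiment as a replicate block, 2084 and 2428 with the culture number as a replicate block, 2862 and 2552 in experiment 1 alone and 2315 and 2753 in experiment 2 alone. The 8 B6 libraries alone gave 837 higher, and 2560 and 2611 with the block. The fits with the culture number and with the B6 libraries plus block were added after seeing the data. DESeq2 gave 1854 and 1985, and leaving out 1 library gave 856 to 1293 and 1145 to 1503.

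For the strain difference, counts more positive and more negative in WSB were 242 and 81 with the experiment as a replicate block, 198 and 53 with the number block, 237 and 90 by DESeq2, 299 and 185 in experiment 1 and 422 and 189 in experiment 2. Leaving out 1 library gave 32 to 125 and 6 to 17. For maturation minus progenitors the block gave 3870 and 4138, and leaving out 1 library 1291 to 1720 and 1569 to 2005. For maturation minus the axon stage the block gave 1293 and 1659, DESeq2 298 and 363, no filter 24 and 42, and leaving out 1 library 15 to 88 and 49 to 122. The cause of these shifts was not tested.

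Summed marker log2 ratios without 1 library ran from 0.33 to 0.75 (pan-neuronal), 0.27 to 0.84 (astrocyte), 1.21 to 1.70 (oligodendrocyte), -3.46 to -2.98 (smooth muscle), -0.49 to -0.18 (fibroblast), -1.41 to -1.01 (endothelium), -1.10 to -1.02 (interferon) and -1.32 to -1.20 (class I). The exact test of 4 against 3 libraries cannot pass 0.05. Alternatives were followed gene by gene for 74 genes, and the calls of other genes named here were not followed in this way. Among the 74, Gfap alone reversed, in experiment 1 alone, to 1.78 in B6 and to -1.48 for the strain difference. Calls in B6 also lost in 1 experiment alone were Cdh1 (-1.68), Gpr17 (-2.88), Nefl (0.52), Stx1a (0.55) and Nog (0.39) in experiment 2 and Cdk6 (-1.16) in experiment 1. In the 8 B6 libraries alone, calls lost (edgeR, adjusted p) were Krt8 (0.0592), Krt18 (0.0508), Nog (0.0791), Stx1a (0.108), Slc1a2 (0.11), Nefl (0.131) and Ntrk2 (0.141), and without the filter Ntrk2 (0.0519). Gpr17 failed the count filter in the 8 B6 libraries alone and was not tested in that fit. The experiment block ended no call among these 74 genes.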
